A study of Mus musculus with 3 samples.

Results

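The genes that take a cell from G1 into S phase were followed under Med23 knockdown in the mouse melanoma line B16F10, whose cells make pigment. They comprise the D cyclins Ccnd1, Ccnd2 and Ccnd3, the E cyclins Ccne1 and Ccne2, the kinases Cdk2, Cdk4 and Cdk6, the retinoblastoma gene Rb1 and the transcription factor gene E2f1. These 10 genes were chosen by name for their role in this step, with earlier results of these data known. Each had 1 row among the 12852 genes measured. All 10 averaged at least 1 RPKM over the libraries, the limit for testing, and so stood among 9722 tested genes. The series compared 2 RNA sequencing libraries of cells given siRNA against Med23, titled siMed23A and siMed23B and labelled Med23 knockdown-1 and knockdown-2, with 1 library of control cells titled siCtrl and labelled wild type. All were grown in the same medium with serum. The labels do not say if A and B stand for different siRNAs or for repeats, nor if the cultures were separate, so p-values measure only the spread between these samples, which may be technical or hold a difference between siRNAs. Med23 encodes a subunit of Mediator, which links transcription factors to RNA polymerase II.

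D cyclins are made in response to growth signals and activate Cdk4 and Cdk6, which begin to phosphorylate the Rb protein. Rb then releases E2f factors, which switch on Ccne1, Ccne2 and other genes of S phase, and cyclin E with Cdk2 completes the phosphorylation of Rb. Inhibitor proteins such as those of Cdkn1a and Cdkn1b hold these kinases in check. In human melanoma cells CDK2 has been described as a target of MITF, the factor that directs pigment genes.

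Values are RPKM, a read density per transcript length and library size, so levels of different genes can be set side by side. The 3 libraries had been made equal in distribution before deposit, each summing to 255492 RPKM, and read depth is unknown. Med23 stood at 1.66 and 1.61 RPKM in the knockdown libraries and 5.23 RPKM in the control, and Mitf at 4.23 and 3.51 RPKM in the knockdown libraries and 9.0 RPKM in the control (limma adjusted p = 0.00121 for Med23 and 0.00297 for Mitf). All 8 melanocyte markers checked were present, with summed levels of 3015 and 2904 RPKM in the knockdown libraries and 7018 RPKM in the control, and all 8 fell by limma's test. Their part in the G1 values was not tested. Of 15 markers of leukocytes, vessels, epithelium and connective tissue, 4 were measured, with summed levels of 12.9 and 13.3 RPKM in the knockdown libraries against 19.1 RPKM in the control. Of these 4, 2 could be tested and 1 fell, the macrophage marker Cd68, and the other 11 were not analysed here. In bulk RNA, fewer cells in a phase of the cycle and less RNA per cell cannot be told apart.

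Most of the G1 genes fell after Med23 knockdown, led by 2 of the D cyclins and Cdk2, while Ccne1, Cdk6 and Cdk4 rose. By limma with Benjamini-Hochberg adjustment over all tested genes, 6 of the 10 were lower, 3 were higher and 1, Ccne2, did not pass. Over all tested genes 24% were lower, 26.3% were higher and 50.3% were called in either direction, so a call in this comparison is common. In all 10 genes both knockdown values lay on the same side of the control, 7 below it and 3 above it, as they did in 90.8% of tested genes. The median log2 ratio of knockdown over control, on the log2(RPKM + 1) scale used throughout, was -0.36 for the 10 genes and 0.01 for all tested genes. Because the libraries had been made equal in distribution, a shift shared by all genes could not appear in the values for all tested genes. At least a 2-fold fall in both knockdown libraries was seen for Ccnd1 and Ccnd2 (4.76% of tested genes), and 0 of the 10 rose as much (4.97% of tested genes). At 1.5-fold in both libraries Cdk2 joined them (13.5% of tested genes), and Ccne1 and Cdk6 rose by that much (14.6% of tested genes). The control had no replicate, so limma's spread came from the 2 knockdown libraries and from a prior over all genes. When the control was taken to vary 3 times as much as a knockdown library, 0 of the 10 passed limma's test and 4 had an unadjusted p under 0.05, with 2.01% of tested genes called. Med23, the target of the siRNA, did not pass under that setting either (limma adjusted p = 0.108).

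**Figure D1:**
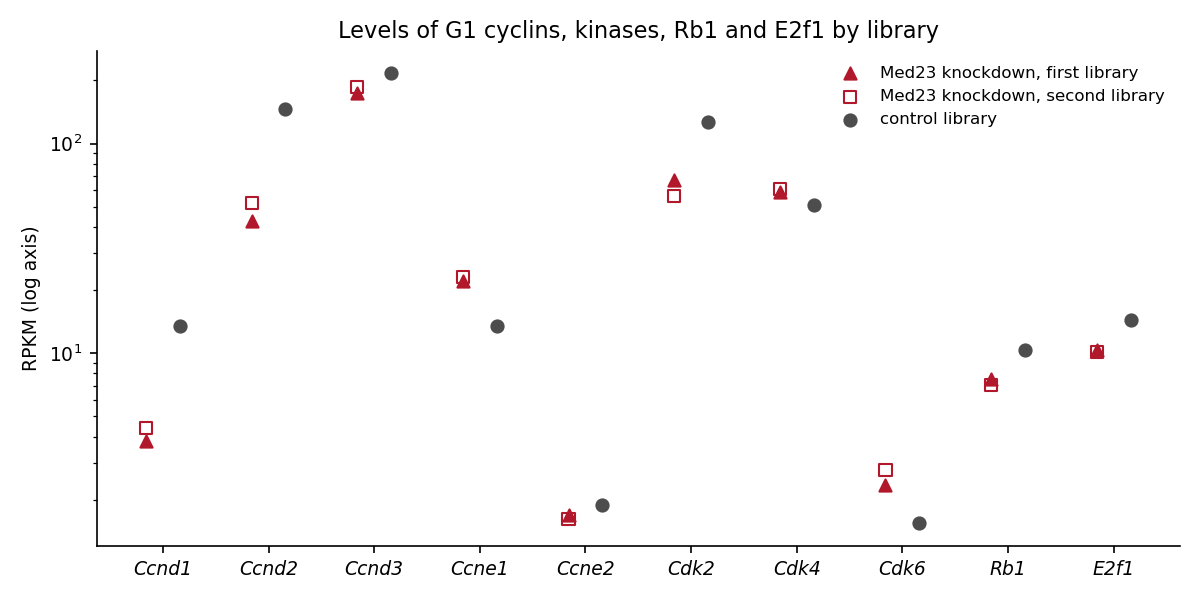
RPKM on a log axis for each of the 10 genes in the first knockdown library (triangles), the second knockdown library (open squares) and the control library (circles). Ccnd1, Ccnd2 and Cdk2 lie well below the control in both knockdown libraries, and Ccne1, Cdk4 and Cdk6 lie above it.

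Ccnd2, a D cyclin, had 42.9 and 52.1 RPKM in the knockdown libraries and 145.5 RPKM in the control. Both knockdown values were under the control, with a mean of 47.5 ± 6.53 RPKM (SD, n = 2), 3.06-fold lower. Its log2 ratio was -1.60 (SE 0.12, limma adjusted p = 0.000729), and 58 of the 9722 tested genes had a lower one. Ccnd1, the D cyclin most widely used as a readout of growth factor signalling, had 3.81 and 4.40 RPKM in the knockdown libraries and 13.5 RPKM in the control. That made it 3.29-fold lower at a mean of 4.11 ± 0.417 RPKM (SD, n = 2) (log2 ratio -1.51, SE 0.12, limma adjusted p = 0.000863). A lower log2 ratio than that of Ccnd1 was found in 0.751% of tested genes. Ccnd3, the most abundant of all 10 genes in every library, had 174.8 and 185.9 RPKM in the knockdown libraries and 216.4 RPKM in the control. It fell by 16.7% (log2 ratio -0.26, SE 0.06, limma adjusted p = 0.015), a change that did not pass when limma was run without an intensity trend (adjusted p = 0.0803). Whether Ccnd3 changed less than the other D cyclins was not tested, but in each knockdown library its log2 ratio, -0.31 in the first and -0.22 in the second, was closer to 0 than those of Ccnd1 (-1.59 and -1.43) and Ccnd2 (-1.74 and -1.46).

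The makeup of the D cyclin transcripts differed between the libraries, with more of the sum in Ccnd3 after knockdown. Together they came to 221.5 and 242.5 RPKM in the knockdown libraries and 375.5 RPKM in the control. Ccnd3 made up 78.9% and 76.7% of that sum in the knockdown libraries and 57.6% in the control. The share of Ccnd2 was 19.4% and 21.5% in the knockdown libraries and 38.8% in the control, and that of Ccnd1 was 1.72% and 1.81% in the knockdown libraries and 3.60% in the control.

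**Figure D2:**
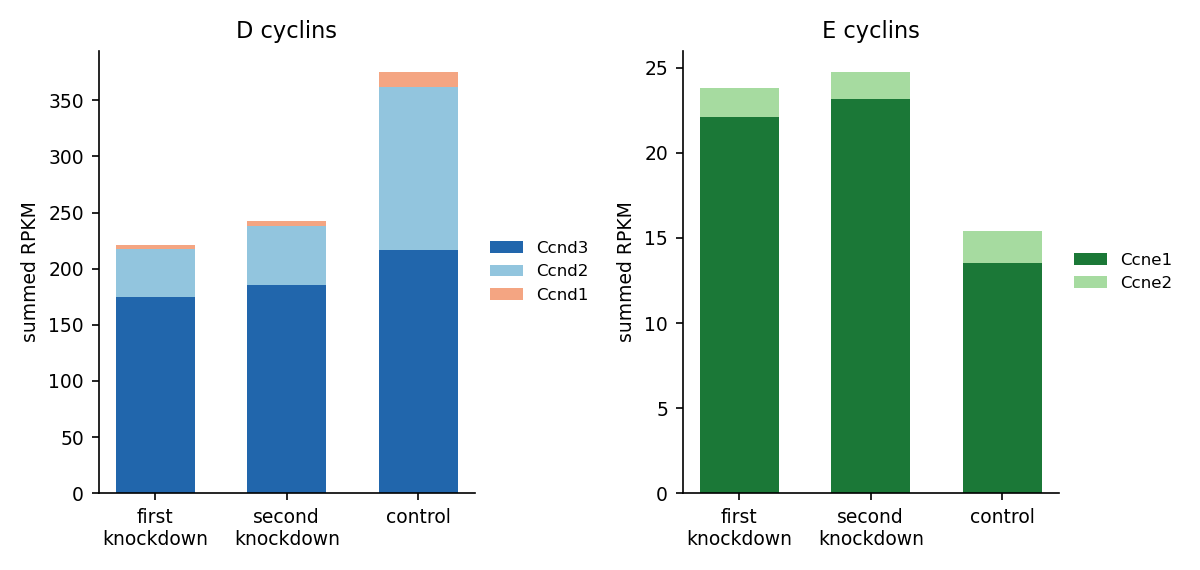
Summed RPKM of the D cyclins (left) and the E cyclins (right) in the first knockdown, second knockdown and control libraries, with each gene as a stacked part of the bar. The D cyclin bars are shorter after knockdown, mainly through Ccnd2, whereas the E cyclin bars are taller through Ccne1.

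Ccne1, the E cyclin with the higher RPKM here and a partner of Cdk2, went the other way. Its levels were 22.1 and 23.2 RPKM in the knockdown libraries and 13.5 RPKM in the control, a rise of 67.2% to a mean of 22.6 ± 0.726 RPKM (SD, n = 2). The log2 ratio was 0.70 (SE 0.09, limma adjusted p = 0.00269), higher than that of 91.7% of tested genes. Ccne2, the second E cyclin, was scarce, with 1.69 and 1.61 RPKM in the knockdown libraries and 1.89 RPKM in the control (log2 ratio -0.12, SE 0.11, limma adjusted p = 0.395). The level of Ccne1 was 13.1 and 14.4 times that of Ccne2 in the knockdown libraries and 7.16 times in the control. Summed, the E cyclins reached 23.8 and 24.8 RPKM in the knockdown libraries and 15.4 RPKM in the control.

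The kinases split. Cdk2, which works with cyclins E and A, had 66.8 and 56.0 RPKM in the knockdown libraries and 126.5 RPKM in the control, 2.06-fold lower at a mean of 61.4 ± 7.62 RPKM (SD, n = 2). The log2 ratio was -1.04 (SE 0.11, limma adjusted p = 0.00188), with 3.15% of tested genes lower. Cdk4, the D cyclin kinase with the higher RPKM here, had 58.7 and 60.6 RPKM in the knockdown libraries and 51.1 RPKM in the control. This rise of 16.7% (log2 ratio 0.22, SE 0.07, limma adjusted p = 0.0413) was the smallest of the 9 calls on the log2 scale, and it did not pass without an intensity trend (adjusted p = 0.107) or after a correction for transcript length and GC content (log2 ratio 0.08, adjusted p = 0.435). Cdk6, the alternative D cyclin kinase, was low, with 2.35 and 2.76 RPKM in the knockdown libraries and 1.54 RPKM in the control (log2 ratio 0.48, SE 0.13, limma adjusted p = 0.0274). After the correction for length and GC content its log2 ratio was 0.93 (limma adjusted p = 0.000538). Cdk6 stood at 4.01% and 4.56% of the Cdk4 level in the knockdown libraries and 3.02% in the control. Cdk2 was 1.14 and 0.924 times as abundant as Cdk4 in the knockdown libraries and 2.47 times in the control, so the kinases were near parity after knockdown and their order differed between the 2 libraries. Summed D cyclins amounted to 3.63 and 3.82 times the summed Cdk4 and Cdk6 in the knockdown libraries and 7.13 times in the control. Summed E cyclins were 35.7% and 44.2% of the Cdk2 level in the knockdown libraries and 12.2% in the control.

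The promoters of Cdk2 and Cdk4 are shown because the genes moved in opposite directions, and because Cdk2 starts head to head with Pmel, a pigment gene that fell. The rise of Cdk4 was small and did not pass without an intensity trend or after the length and GC correction. Pmel, which forms the fibrils of the melanosome, had 573 and 560 RPKM in the knockdown libraries and 1712 RPKM in the control (log2 ratio -1.59, limma adjusted p = 5.17e-05). Among Pmel transcripts that start outside Cdk2, on the other strand, the nearest starts 128 bases from the Cdk2 start. Motifs were searched in the 250 bases before the RefSeq start in build GRCm38.p6. For Cdk2 the 140 bases next to the start are printed, at chr10:128705052-128705191 on the minus strand, which leaves out most of the Pmel exon in that window. The first 12 bases printed, and with them the marked E2f match, lie in that exon. For Cdk4 the printed stretch is the whole window, at chr10:127063285-127063534 on the plus strand. Capitals mark matches on either strand to the E2f forms TTTCCCGC, TTTCGCGC or TTTGGCGC in Cdk2 and to the E-box forms CACGTG or CATGTG, which Mitf and Myc can read, in Cdk4.
Cdk2: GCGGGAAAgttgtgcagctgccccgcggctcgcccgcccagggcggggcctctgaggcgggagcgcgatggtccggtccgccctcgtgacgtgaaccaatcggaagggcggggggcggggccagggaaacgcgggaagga
Cdk4: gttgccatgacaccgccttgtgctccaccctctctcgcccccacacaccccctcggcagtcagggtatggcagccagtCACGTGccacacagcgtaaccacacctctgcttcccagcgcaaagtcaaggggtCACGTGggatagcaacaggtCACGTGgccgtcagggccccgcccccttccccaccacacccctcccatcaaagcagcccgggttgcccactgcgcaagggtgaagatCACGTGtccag

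Cdk4 held 4 E-box matches, and Cdk2 held 1 E2f match and no E-box match in its window. Of 32851 RefSeq promoters of the same length, 17.6% held at least 1 E-box match, 0.116% held 4 or more, and 1.53% held an E2f match. Promoters were matched for 6 of the 10 genes (Ccnd3, Ccne1, Cdk2, Cdk4, Cdk6 and E2f1). Among these Cdk6 held 1 E-box match, and the AP-1 forms TGACTCA and TGAGTCA, which 4.46% of promoters held, had no match in any of the 6. A match of letters is a description and not a measured site of binding.

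Rb1, whose protein restrains E2f factors, had 7.51 and 7.04 RPKM in the knockdown libraries and 10.3 RPKM in the control. It fell by 29.6% (log2 ratio -0.45, SE 0.10, limma adjusted p = 0.0164), and after the correction for length and GC content the log2 ratio was -0.26 (adjusted p = 0.0600). E2f1, a factor that activates genes of S phase and is itself released by Rb, had 10.3 and 10.1 RPKM in the knockdown libraries and 14.4 RPKM in the control. Its fall of 28.9% (log2 ratio -0.45, SE 0.09, limma adjusted p = 0.012) was close in size to that of Rb1. For both genes 18.1% of tested genes had a lower log2 ratio.

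**Figure D3:**
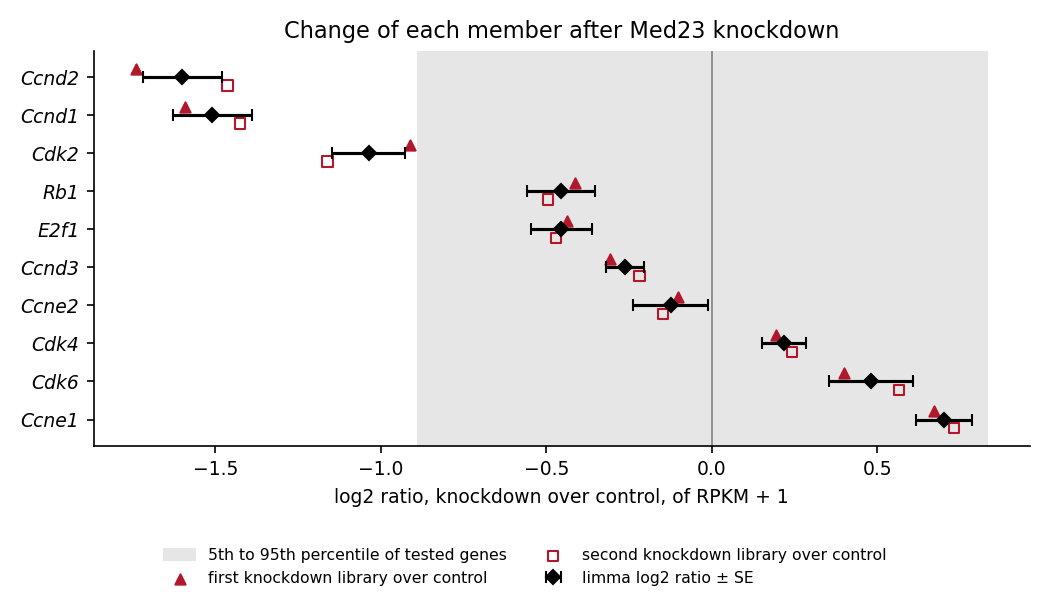
Log2 ratio of knockdown over control on the log2(RPKM + 1) scale for each gene, as limma's estimate with its SE (diamonds), the first knockdown library (triangles) and the second (open squares). The grey band spans the 5th to the 95th percentile of all tested genes, -0.89 to 0.83, and Ccnd2, Ccnd1 and Cdk2 lie below it in both libraries.

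The order of the levels changed in several places. In the control it ran Ccnd3, Ccnd2, Cdk2, Cdk4, E2f1, Ccne1, Ccnd1, Rb1, Ccne2 and Cdk6 from high to low, with E2f1, Ccne1 and Ccnd1 between 14.4 and 13.5 RPKM and no replicate to separate them. After knockdown Ccnd3 remained the highest in both libraries, followed by Cdk2 and Cdk4 in an order that differed between them, and then by Ccnd2, Ccne1, E2f1, Rb1, Ccnd1, Cdk6 and Ccne2. Ccnd1 thus lay above Rb1 in the control and below it in both knockdown libraries. Among all 12852 genes Ccnd1 stood at percentile 47.6 and 51.1 in the knockdown libraries and 76.8 in the control, whereas Ccnd3 stayed between 98.4 and 98.8.

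Most of these genes share exonic sequence with a gene on the other strand, and the sources used here do not say that reads were assigned by strand. In GENCODE M21, an annotation of a later build than the mm9 named by the submitters, 8 of the 10 had such an overlap, and Ccne1 and E2f1 had none. Cdk2 shares 34 exonic bases with a Pmel transcript that starts inside Cdk2, and the part of Pmel reads in the Cdk2 value was not tested. Ccnd1 shares 23.4% of its exonic bases with the gene listed as Oraov1, which had 4.17 and 4.46 RPKM in the knockdown libraries and 2.79 RPKM in the control and rose while Ccnd1 fell (log2 ratio 0.49, limma adjusted p = 0.0177); its part in the Ccnd1 value was not tested. Cdk4 shares 19.7% with Tspan31, at 67.1 and 69.4 RPKM in the knockdown libraries and 60.0 RPKM in the control, on the same side as Cdk4 (log2 ratio 0.18, limma adjusted p = 0.0623). Its part in the Cdk4 value was not tested. Ccne2 overlaps Ints8 over 17.4%. Ints8 had 3.61 and 2.98 RPKM in the knockdown libraries and 3.94 RPKM in the control, above Ccne2 in every library. The part of Ints8 reads in the Ccne2 value was not tested. The shares for Ccnd2, Ccnd3, Cdk6 and Rb1 were between 2.63% and 8.11% for each partner.

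The inhibitors of these kinases also moved in both directions. Cdkn1a, which encodes p21 and is induced by p53, had 97.0 and 97.3 RPKM in the knockdown libraries and 303.6 RPKM in the control (log2 ratio -1.63, SE 0.05, limma adjusted p = 0.000112), and it still passed when the control SD was taken 3 times larger (adjusted p = 0.0149). Cdkn1b, which encodes p27, had 104.3 and 108.2 RPKM in the knockdown libraries and 153.8 RPKM in the control (log2 ratio -0.53, limma adjusted p = 0.00188). Cdkn2c, an inhibitor of Cdk4 and Cdk6, rose to 33.0 and 35.0 RPKM in the knockdown libraries, against 22.1 RPKM in the control (log2 ratio 0.60, limma adjusted p = 0.00346). Of 5 inhibitors tested, 2 fell, 2 rose and 1 did not pass, in a table where 50.3% of tested genes were called. The second that rose, Cdkn1c, had 1.08 and 1.51 RPKM in the knockdown libraries and 0.637 RPKM in the control, so it reached the filter only through the knockdown libraries. Its adjusted p of 0.0465 was above 0.05 without a filter and after the length and GC correction. Cdkn2a and Cdkn2b were not analysed here. Summed Cdkn1a and Cdkn1b came to 201.4 and 205.5 RPKM in the knockdown libraries and 457.4 RPKM in the control. Per unit of these inhibitors there were 1.10 and 1.18 units of D cyclin RPKM in the knockdown libraries and 0.821 in the control. The D cyclin sum itself was lower after knockdown, and this ratio counts only the inhibitors that fell, without Cdkn2c, which rose. All 5 inhibitors summed to 240.2 and 246.7 RPKM in the knockdown libraries and 483.7 RPKM in the control. The D cyclin sums were below these, at 221.5 and 242.5 RPKM in the knockdown libraries and 375.5 RPKM in the control.

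Among 18 tested regulators above the D cyclins, 9 rose and 5 fell, leaving 4 short of the threshold, and the median log2 ratio was 0.17. That is 77.8% called, beside 50.3% of all tested genes, of which 26.3% rose and 24% fell. The 9 include Fosl1, which at 1.16 and 1.29 RPKM in the knockdown libraries and 0.611 RPKM in the control reached the filter only through the knockdown libraries. Jun, an AP-1 subunit, had 95.1 and 101.6 RPKM in the knockdown libraries and 22.8 RPKM in the control (log2 ratio 2.06, limma adjusted p = 0.000162). Fos, its partner, had 18.8 RPKM in each knockdown library and 2.15 RPKM in the control, and Jund had 45.3 and 43.0 RPKM in the knockdown libraries and 25.0 RPKM in the control. Myc, a growth factor response gene that acts through E-boxes, had 20.0 and 22.9 RPKM in the knockdown libraries and 8.90 RPKM in the control (log2 ratio 1.18, limma adjusted p = 0.00136). Ccnd1 and Ccnd2 thus fell in the same libraries in which Jun, Fos and Myc rose. Of all pathway genes, 3 still passed with the more variable control, namely Cdkn1a, Fos and Jun (adjusted p = 0.021 for the last pair).

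The controls of kinase activity gave 4 rises and 2 falls among 10 tested, with 4 that did not pass (median log2 ratio 0.13). The 60% called is near the 50.3% of all tested genes. Cdc25a, a phosphatase that activates Cdk2, had 4.0 and 4.26 RPKM in the knockdown libraries and 6.45 RPKM in the control. Cdc25c, its mitotic relative, had 15.5 and 14.9 RPKM in the knockdown libraries and 8.35 RPKM in the control. Mnat1, an assembly factor of the kinase that activates Cdk2 and Cdk4, and Hsp90ab1, a chaperone of kinases, were also called higher, with log2 ratios of 0.34 and 0.41. Cdc25a thus fell (limma adjusted p = 0.012) and Cdc25c rose (limma adjusted p = 0.00232). Cdc25b, another phosphatase of mitotic entry and chosen after its values were seen, had 21.5 and 21.6 RPKM in the knockdown libraries and 20.3 RPKM in the control (log2 ratio 0.08, limma adjusted p = 0.440).

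Among 8 tested pocket proteins, E2f factors and Dp factors, 2 rose, 2 fell and 4 did not pass (median log2 ratio -0.26), so the share called, 50%, was that of tested genes in general (50.3%). Rbl2, a relative of Rb1, fell to 5.09 and 5.26 RPKM in the knockdown libraries, against 8.80 RPKM in the control (limma adjusted p = 0.00531), and Rbl1 had 3.02 and 2.71 RPKM in the knockdown libraries and 3.86 RPKM in the control (limma adjusted p = 0.0646). E2f4 and E2f5, which act mainly as repressors with pocket proteins, differed in direction, with log2 ratios of 0.49 and -0.77, and Tfdp2, a dimer partner of E2f factors, rose (log2 ratio 0.45). Of 7 genes of the MuvB complex and its Myb and Foxm1 partners, Lin37 alone passed, with a log2 ratio of 0.36 (limma adjusted p = 0.0432), so 14.3% were called. It did not pass without a filter.

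Among 12 tested genes for the degradation of cyclins and inhibitors, 6 fell, 2 rose and 4 stayed above the threshold (median log2 ratio -0.33), with 66.7% called beside 50.3% of all tested genes. Cul3 and Cul4a, scaffolds of ubiquitin ligases, were lower, with log2 ratios of -0.62 and -0.86. Fbxo31, which in human cells directs cyclin D1 to degradation, had 0.913 and 0.911 RPKM in the knockdown libraries and 2.29 RPKM in the control, so it reached the filter through the control. Fzr1, an activator of the anaphase-promoting complex in G1, had 8.86 and 9.06 RPKM in the knockdown libraries and 13.6 RPKM in the control (limma adjusted p = 0.00717).

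Among 22 tested targets of E2f factors at S phase entry, 6 fell, 1 rose and 15 stayed above the threshold (median log2 ratio -0.21), so 31.8% were called, beside 50.3% of all tested genes. Rrm2, a subunit of ribonucleotide reductase, had 15.7 and 15.5 RPKM in the knockdown libraries and 34.9 RPKM in the control (log2 ratio -1.11, limma adjusted p = 0.000685). Mcm3, of the replicative helicase, and Dbf4, the activator of the kinase that fires origins, fell with log2 ratios of -0.79 and -0.70. The member that rose was Cdt1, a loader of the helicase, at 21.7 and 19.1 RPKM in the knockdown libraries and 12.5 RPKM in the control. Ccna2, the cyclin that follows cyclin E on Cdk2, had 30.0 and 29.6 RPKM in the knockdown libraries and 41.2 RPKM in the control (log2 ratio -0.46, limma adjusted p = 0.00583).

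Cyclins and cyclin-dependent kinases outside the G1 set were split. Of 28 tested, 11 fell and 7 rose, and their median log2 ratio was 0.00, with 64.3% called beside 50.3% of all tested genes. The 7 include Ccno, which at 1.64 and 1.53 RPKM in the knockdown libraries and 0.899 RPKM in the control reached the filter only through the knockdown libraries. They also include Ccni, chosen after its values were seen, at 113.7 and 119.4 RPKM in the knockdown libraries and 64.1 RPKM in the control. The log2 ratio of Ccni was 0.85 (limma adjusted p = 0.000683). Ccng1 and Ccng2, which encode G-type cyclins, fell with log2 ratios of -1.50 and -1.03. Ccnf, which guides proteins to degradation, and Cdk19, a kinase of Mediator itself, fell with log2 ratios of -1.03 and -0.95. Cdk1, the mitotic kinase, had 28.6 and 29.1 RPKM in the knockdown libraries and 38.3 RPKM in the control (limma adjusted p = 0.00908). Of 12 proliferation markers, 3 rose, 4 fell and 5 did not pass, a called share of 58.3% beside 50.3% of all tested genes, with summed levels of 313 and 264 RPKM in the knockdown libraries and 295 RPKM in the control. Among them Cdc20 rose (log2 ratio 0.81) and Aurkb fell (log2 ratio -0.46), while Mki67, a marker of cycling cells, stood at 20.6 and 11.4 RPKM in the knockdown libraries and 32.2 RPKM in the control. The 2 knockdown libraries thus differed in Mki67 more than in any of the 10 G1 genes by SD relative to the mean, and the part of the cycling fraction in the G1 values was not tested.

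**Figure D4:**
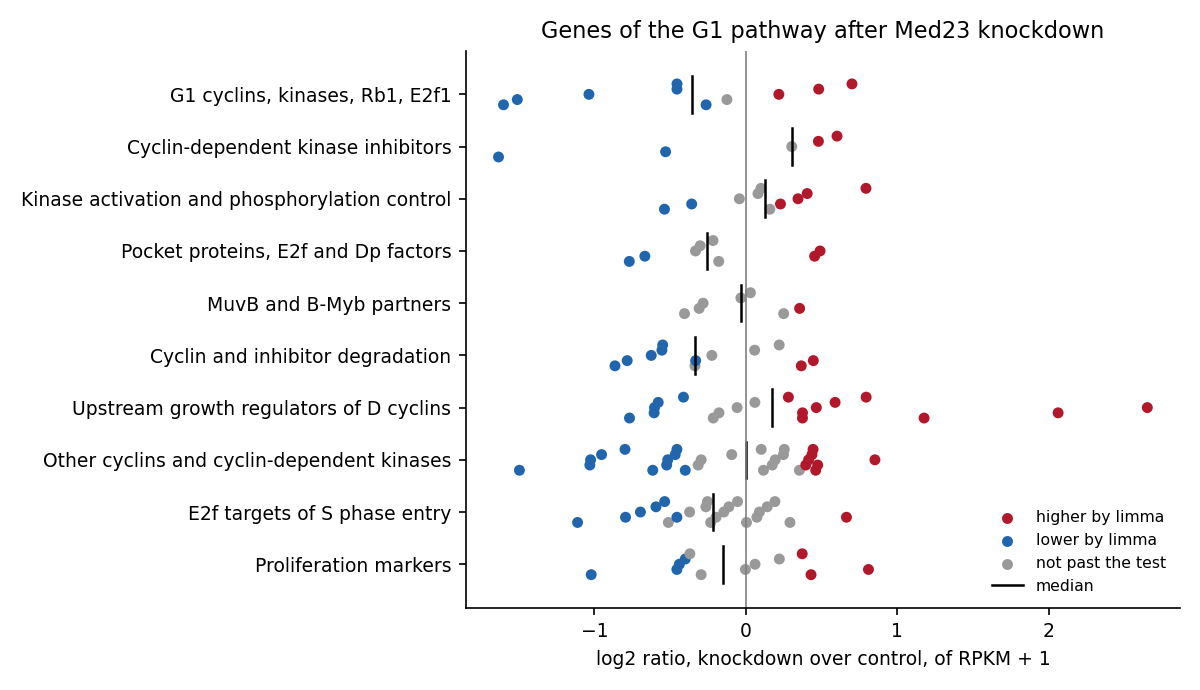
Log2 ratio of knockdown over control for each tested gene of the G1 set, 8 pathway lists and the proliferation markers, with red for higher, blue for lower and grey for not past limma's test, and a black line at each median. Every list spreads to both sides of 0, and the longest tail to the right belongs to Fos and Jun among the regulators of D cyclins.

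Counting each gene of these 9 lists once, 119 were tested, of which 36 fell, 31 rose and 52 were not called. That makes 56.3% called, against 50.3% of all tested genes, and 6 fell at least 2-fold in both knockdown libraries, as did 4.76% of all tested genes, and 3 rose as much, as did 4.97%.

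**Figure D5:**
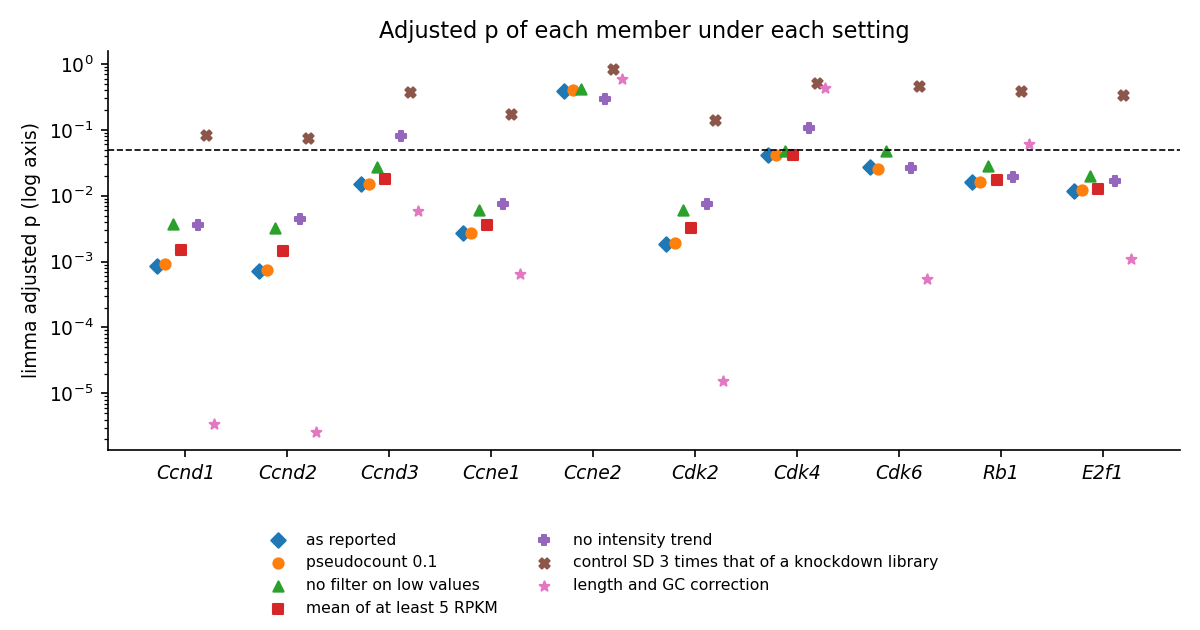
Limma adjusted p on a log axis for each of the 10 genes under the reported fit and each other setting, with a dashed line at 0.05. All points of Ccne2 and every point with a 3 times larger control SD lie above the line, and Ccnd3, Cdk4 and Rb1 also have points above it under other settings.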

How the data were processed

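Total RNA was sequenced from B16F10 cells, in 1 control and 2 Med23 knockdown libraries. The authors deposited RPKM values, a unit given in the name of their table. CASAVA 1.4, TopHat, Cufflinks and mm9 appear in the submitters' processing notes, which assign them no roles. Normalization, gene filter and annotation are not given in the sources used here. After sorting, the 3 columns were equal in 95.3% of positions (relative difference under 1e-09), so the values had been quantile normalized and hold no depth or total RNA amount. The names of both knockdown columns share 1 header cell, and each was therefore given the group alone; they are called first and second by their place.

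Genes averaging 1 RPKM or more were tested as log2(RPKM + 1), where a ratio understates changes of low genes, with limma 3.58.1 in R 4.3.3 (eBayes with an intensity trend, Benjamini-Hochberg adjustment, threshold 0.05). The fit has 1 residual degree of freedom and a prior of 4.37, and takes the lone control to vary like a knockdown library. An exact two-sided permutation test over 3 libraries cannot go below 0.333.

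The members and all 9 pathway lists were chosen with earlier results of these data known, so they are no independent evidence. Named genes are all members, up to 4 called genes per list by the smaller of both library ratios, and a fixed set. Alternatives were a pseudocount of 0.1, no filter, a minimum of 5 RPKM, median scaling, no trend, a control SD 3 times larger, a loess correction (span 0.5) for length and GC content from GENCODE M21 (98.1% of genes matched by ID), a 1.5-fold limit, and each knockdown library left out. Promoters are from RefSeq (GRCm38.p6). Python 3.11.15, pandas 2.3.3 and matplotlib 3.10.9 were used.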

Additional observations from a re-analysis of the deposited data

How the results depend on the processing

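Of 88 values of the 10 G1 genes under other settings, 13 no longer passed and none changed direction. The other 75 kept direction, and those with a test kept their side of the threshold. The 75 include log2 ratios with either knockdown library left out, which have no test. Those ratios could not change direction, since both knockdown values lay on the same side of the control. Values after median scaling, which changed nothing, are also among the 75. Without an intensity trend Ccnd3 and Cdk4 did not pass, and with the length and GC correction Cdk4 and Rb1 did not, while the log2 ratio of Cdk6 was 0.93 in place of 0.48 (0.69 with a pseudocount of 0.1). With a 3 times larger control SD the count of G1 genes was 0 higher and 0 lower, and for the pathway lists it was 2 higher for regulators of D cyclins (Fos and Jun), 1 lower for inhibitors (Cdkn1a) and 0 in every other list and direction. Without a filter, 1 inhibitor was higher, 1 gene of kinase control lower, 4 pocket and E2f genes lower and 0 MuvB genes higher. With a minimum of 5 RPKM, 1 inhibitor and 1 pocket or E2f gene were higher, and 1 gene of kinase control and 7 other cyclins and kinases lower. Without a trend, 1 gene of kinase control and 1 MuvB gene were lower. With the length and GC correction, 1 inhibitor and 1 degradation gene were higher and 3 regulators lower. The cause of these shifts was not tested. A 1.5-fold limit in both libraries gave 3 G1 genes lower and 2 higher. With 1 knockdown library left out, 2 or 3 G1 genes were 2-fold lower and 0 higher. Counts by limma could not be had with a library left out, since no residual degree of freedom is left. Median scaling changed nothing because the libraries already had equal medians. Read depth is unknown, so no counting error can be given for any gene.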
